A study of Mus musculus with 14 samples.

Results

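A set of 61 genes in cultured hepatic stellate cells (HSCs) had a low level 16 h into culture and a higher level both before and after. The set was drawn from the 19938 genes with a probe set of their own. A gene was taken when its mean log2 level in control cells was at least 2-fold lower at 16 h than at 4 h and at least 2-fold higher at 64 h than at 16 h. In all 66 genes met both limits, and 5 of them were left out by name. The control arrays chose the genes, so their control levels are a description, and every comparison with VPA that uses Ctrl4h or Ctrl64h shares arrays with that choice.

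The HSCs were isolated from the liver of BalbC mice (Balb/cByJ in the methods) and cultured in DMEM with 10% fetal bovine serum. Unattached cells were washed off 2 h after seeding, and times are counted from then. The control groups were Ctrl4h (3 arrays), Ctrl16h (2 arrays) and Ctrl64h (3 arrays), named for the hours in culture. Cells that received 2.5 mM valproic acid (VPA) from time 0 made up VPA4h and VPA64h, with 3 arrays each. No VPA sample was taken at 16 h, so a dip at that time could be seen in control cells alone. Each array held RNA of a whole culture, in which fewer cells of one type and less RNA per cell cannot be told apart. The arrays of a group came from separate HSC isolations.

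HSCs are the vitamin A storing pericytes of the liver. On plastic in serum they flatten, lose their lipid droplets and take on features of myofibroblasts, which deposit collagen and contract. Isolation with enzymes and the first hours of attachment are themselves a stimulus to which cells respond with early messages. VPA is an inhibitor of histone deacetylases, the enzymes that remove acetyl groups from histones.

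Expression was measured on Affymetrix Mouse Gene 1.0 ST arrays as RMA log2 values, on which a difference of 1 is a 2-fold change. Array medians ran from 6.34 to 6.41. Levels are given on this log2 scale, as mean ± SD where single arrays are not listed. The words called, rose and fell are kept for genes to which limma gave an adjusted p below 0.05 together with a difference of 2-fold or more. The cells were checked against 30 markers of quiescent HSCs, whose summed log2 level was 15.68 to 15.72 in Ctrl4h, 14.88 to 14.92 in Ctrl16h and 14.998 to 15.11 in Ctrl64h. The HSC markers Ecm1 and Reln had levels of 13.13 and 12.30 at 4 h, while Gfap, at 5.68, was below the array median.

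Markers of other liver cells also moved in control culture, though not all with a dip and a return. All 24 Kupffer cell and macrophage markers were lower at 16 h than at 4 h, C1qa by less than 0.01, and 15 of them were higher again at 64 h. They summed to 10.58 to 11.36 in Ctrl4h, 10.41 to 10.48 in Ctrl16h and 10.78 to 11.49 in Ctrl64h, with 0 called by 16 h and Lyz2 and Ctss called higher afterwards. Lyz2 was 8.11 at 4 h, 7.24 at 16 h and 9.04 at 64 h, and Ctss 8.0, 7.09 and 8.21, while 18 of the 24, with the defining markers Clec4f, Vsig4 and Timd4, lay below the array median at each control time. Of the 22 sinusoidal endothelial markers 21 were lower at 16 h than at 4 h and 9 of these were higher again at 64 h. They summed to 12.73 to 13.05, 11.98 to 12.02 and 12.57 to 12.84. Plvap, called lower by 16 h, was 11.98, 10.62 and 10.93, and Ehd3, called higher afterwards as was Emcn, was 10.35, 9.71 and 11.49. Plvap and Ehd3, with the highest levels of the list, weigh most in the sum. Stab2 was 6.31, 5.99 and 5.88 and Lyve1 6.62, 6.34 and 6.29, with no rise after 16 h. Cholangiocyte, mesothelial and portal fibroblast markers summed to 10.823 to 11.11 at 4 h, 10.769 to 10.818 at 16 h and 10.803 to 11.11 at 64 h, with both Ctrl16h arrays below every Ctrl4h array. Lymphocyte and neutrophil markers summed to 9.96 to 10.53, 9.67 to 9.77 and 9.35 to 9.45, with no return at 64 h. Hepatocyte markers summed to 11.11 to 11.58, 10.76 to 11.26 and 10.56 to 11.23, overlapping between times. A level lower at 16 h and higher again at 64 h was found for 9 of 20 cholangiocyte, mesothelial and portal fibroblast markers. It was found for 3 of 20 lymphocyte and neutrophil markers and 6 of 26 hepatocyte markers. The share of all genes that were lower at 16 h, or lower and then higher, is not given here. Nothing is therefore read from these counts of direction, and the part of other cells in the dip was not tested.

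The dip was deep for a few genes and near the limit for many. The log2 difference between 16 h and 4 h ran from -2.96 to -1.005, with a median of -1.39, and the difference between 64 h and 16 h from 1.004 to 4.47, with a median of 1.56. The level at 16 h was at least 4-fold below that at 4 h for 6 genes and at least 4-fold below that at 64 h for 21, and Usp17ld and Itga8 were the 2 genes with both. For all 61 genes both Ctrl16h arrays lay below every Ctrl4h and Ctrl64h array, as they did for 7.03% of the 23410 tested probe sets. Both steps were called in limma for 60 of the 61, the exception being Ccl3. Of the tested probe sets 1.21% were called lower and 0.705% higher at 16 h than at 4 h, and 4.52% higher and 2.08% lower at 64 h than at 16 h. Nothing is read from these counts, because the same arrays chose the genes. The reverse pattern, 2-fold up by 16 h and 2-fold down afterwards, was found for 6 genes, and 156 genes were at least 2-fold lower at 16 h without coming back by 2-fold.

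**Figure D1:**
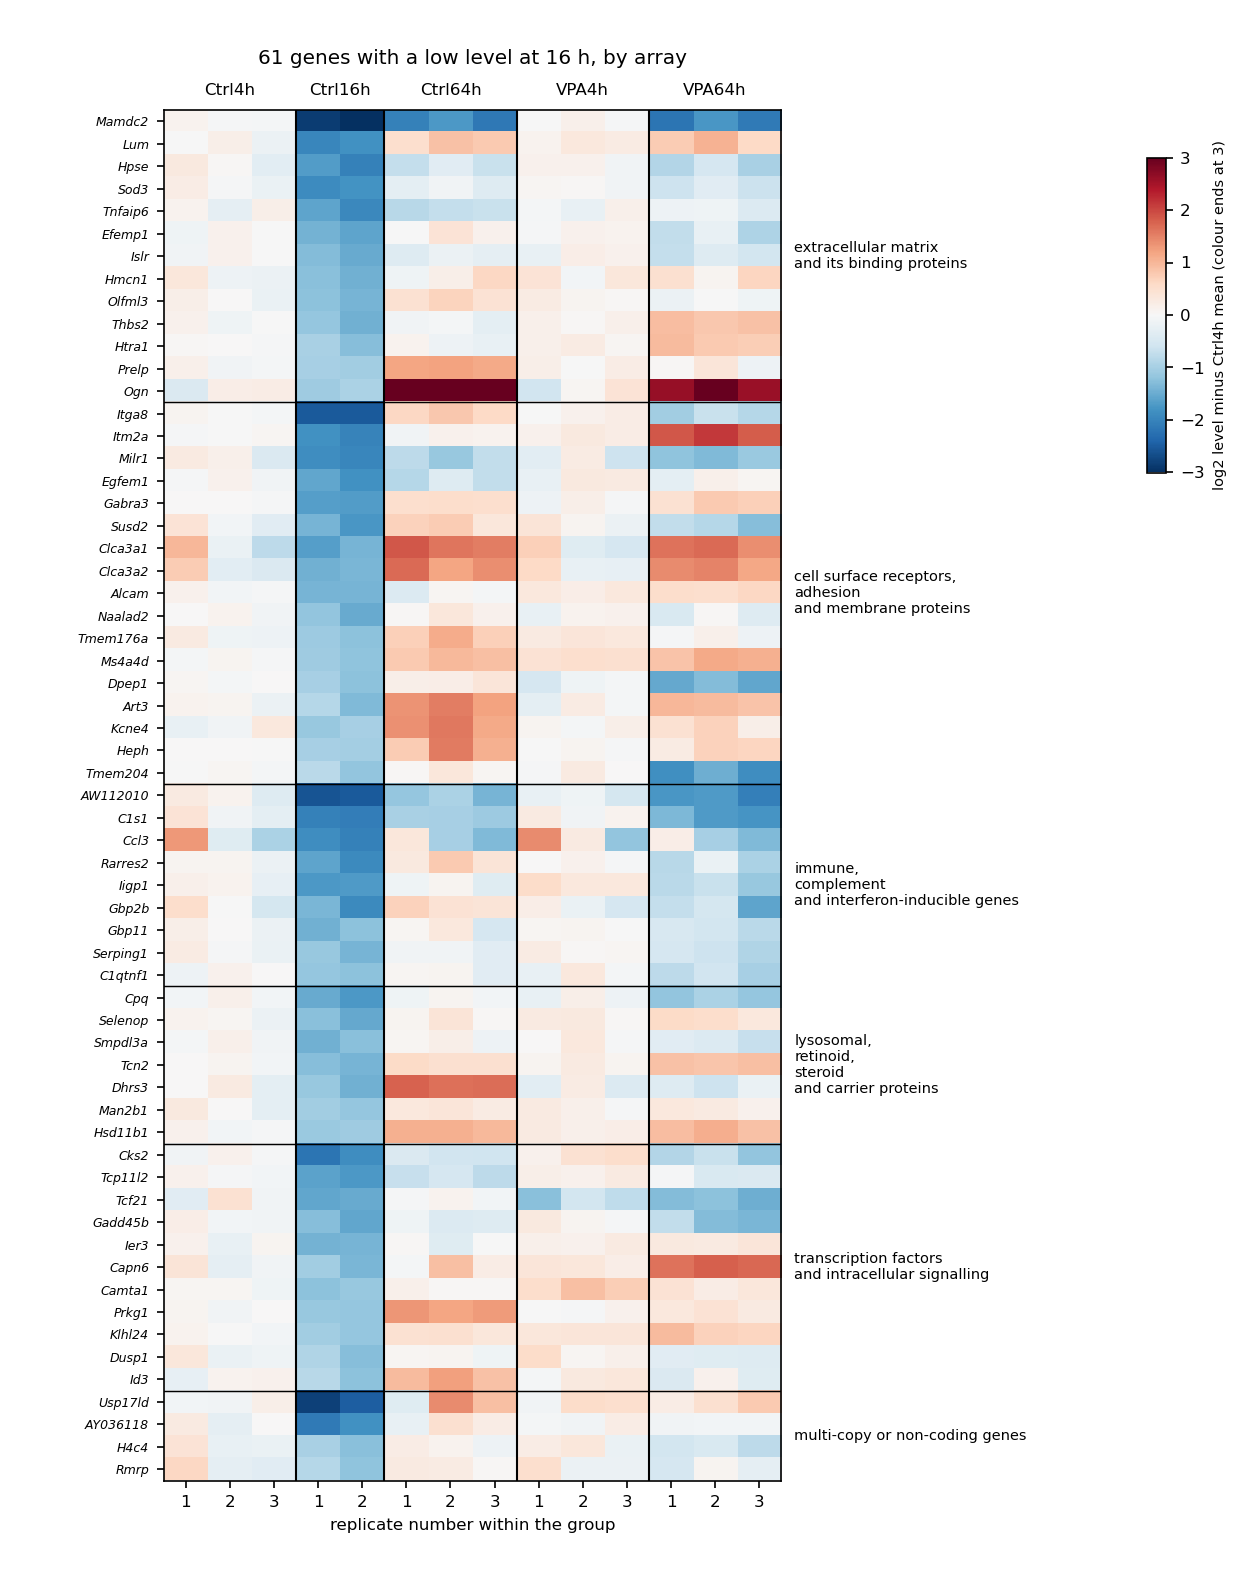
Log2 level of each of the 61 genes (rows, grouped by function) on each of the 14 arrays (columns, by group and replicate) minus the mean of its Ctrl4h arrays. Blue is lower and red higher, the colour ends at a difference of 3, and both Ctrl16h columns are blue in every row while the Ctrl64h columns range from blue in Mamdc2 to red in Ogn.

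Most of the genes came back to within 2-fold of their starting level. At 64 h 47 of 61 were within 2-fold of Ctrl4h, and 36 were within 1.5-fold. Another 11 were at least 2-fold above Ctrl4h and 3 at least 2-fold below. Between these times 6.68% of the tested probe sets were called higher and 3.71% lower, but both groups had served to choose the 61 genes. The difference between 64 h and 4 h ran from -1.96 for Mamdc2 to 3.46 for Ogn, with a median of 0.17.

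The limits cut through a continuous range. Just inside lay Mamdc2 with steps of -2.96 and 1.004, Tmem204 with -1.005 and 1.15 and Heph with -1.01 and 2.15, and just outside Gas2l3 with -0.999 and 1.14, Wfdc1 with -1.86 and 0.975 and Manba with -0.972 and 1.66. With 2 arrays at 16 h a single one moved the number of genes. It was 49 without Ctrl16h replicate 2, of which 45 were among the 61, and 70 without Ctrl16h replicate 1, of which 59 were. The genes lost without Ctrl16h replicate 2 were Art3, Dusp1, Egfem1, Gadd45b, H4c4, Heph, Htra1, Id3, Mamdc2, Milr1, Prelp, Rmrp, Serping1, Tcp11l2, Tmem204 and Tnfaip6. Without Ctrl16h replicate 1 they were Kcne4 and Ogn. Id3 and Ogn were also lost without Ctrl4h replicate 2 or Ctrl4h replicate 3, and Dusp1 and Prelp without Ctrl4h replicate 1. Centring the arrays on 13 housekeeping genes gave 92 genes, with all 61 among them.

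**Figure D2:**
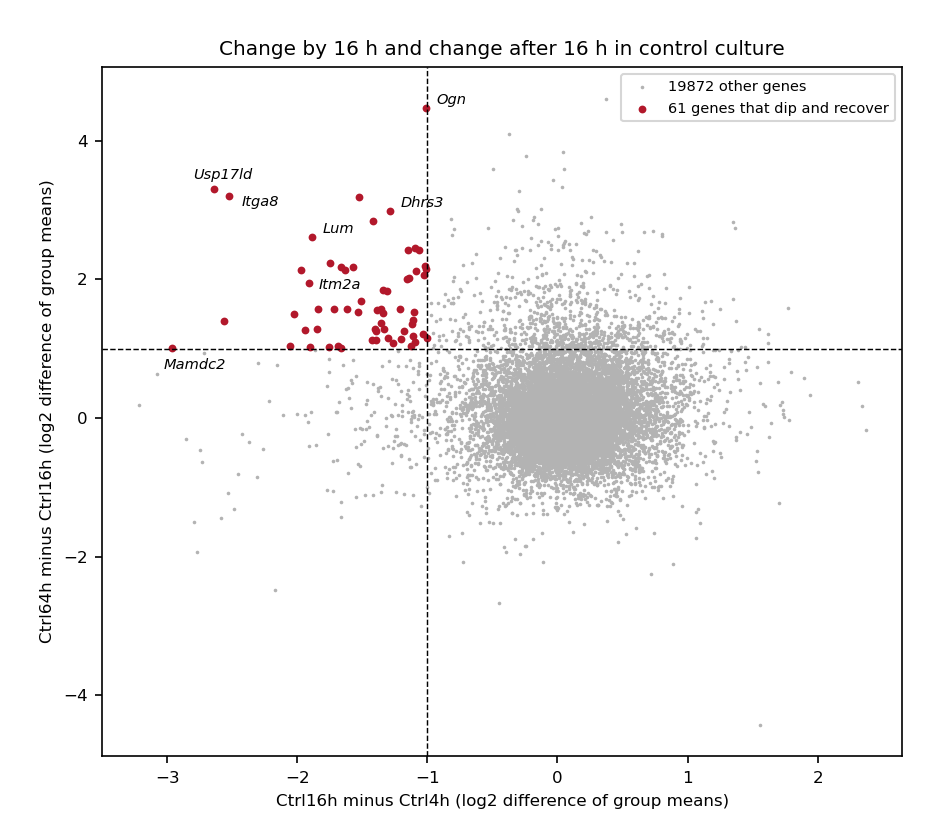
Difference of each gene by 16 h (horizontal, log2 Ctrl16h minus Ctrl4h) and after 16 h (vertical, log2 Ctrl64h minus Ctrl16h), with the 61 genes in red, all others in grey and the 2-fold limits as dashed lines. The red points start at the limits and reach -2.96 for Mamdc2 on the horizontal axis and 4.47 for Ogn on the vertical one.

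By annotation 57 of the 61 were protein coding and 3 of another kind, and for AY036118 the identifier was not in the reference. Of 23 gene lists 9 held at least 1 of the genes, and 17 of the 61 were in a list. Of 61 measured collagens and matrix proteins 6 were among them (Efemp1, Lum, Ogn, Prelp, Thbs2 and Hmcn1), of 31 immediate early genes 3 (Ier3, Dusp1 and Gadd45b), of 38 complement and coagulation genes 2 (C1s1 and Serping1) and of 30 quiescent HSC markers 2 (Tcf21 and Prelp). Lists of 33 retinoid and lipid droplet genes (Dhrs3), 34 chemokines and NF-κB response genes (Ccl3), 43 TGF-β, BMP, Wnt and Hedgehog regulators (Id3), 35 vasoactive and G protein signalling genes (Prkg1) and 37 neuronal genes (Gabra3) held 1 each. Of 17 smooth muscle contractile, 25 cell cycle, 20 cholesterol synthesis and 27 interferon response genes measured, none was among the 61. The same held for 25 metalloproteinases and inhibitors, 44 growth factors and cytokines, 18 clock genes and 21 stress genes. The interferon response and cell cycle lists did not hold Gbp2b, Gbp11, Iigp1 or Cks2, which are among the 61 and named below. Of the 30 quiescent HSC markers 9 were called lower at 16 h than at 4 h, and after 16 h 5 were called higher and 2 lower. For the 31 immediate early genes 16 were called lower by 16 h, and after 16 h 3 were called higher and 4 lower. Over all tested probe sets 1.21% were called lower by 16 h, and 4.52% higher and 2.08% lower afterwards. The function groups used below were formed after the genes were known, and 20 of the 61 genes lie outside the rule for named genes and are named after their values were seen.

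Matrix proteins and proteins that bind them made up 13 of the 61, with median steps of -1.40 and 1.57. Lum encodes lumican, a small leucine-rich proteoglycan that binds collagen fibrils. Its log2 level was 10.81, 11.004 and 10.64 in the Ctrl4h arrays, 8.86 and 9.0 in the Ctrl16h arrays and 11.33, 11.70 and 11.59 in the Ctrl64h arrays. The Ctrl64h arrays stood above the Ctrl4h arrays, and the Ctrl16h arrays lay far below both, 3.7-fold below the 4 h mean. Prelp, a proteoglycan of the same family, was 11.71, 11.46 and 11.52 at 4 h, 10.57 and 10.51 at 16 h and 12.75, 12.78 and 12.70 at 64 h. It was just past the limit on the way down and ended 1.18 above its 4 h level. Ogn, which encodes the related osteoglycin, was 5.42, 6.07 and 6.09 at 4 h, 4.80 and 4.90 at 16 h and 9.05, 9.40 and 9.53 at 64 h. It was below the array median at 4 h and 16 h and had the largest return of the 61 genes.

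Efemp1, the gene of the elastic fibre protein fibulin-3, went from 11.07 ± 0.14 (SD, n = 3) in Ctrl4h to 9.57 ± 0.12 (SD, n = 2) in Ctrl16h and 11.25 ± 0.22 (SD, n = 3) in Ctrl64h. Sod3, the extracellular superoxide dismutase, had levels of 8.66 ± 0.20, 6.82 ± 0.06 and 8.39 ± 0.14 at the same times and numbers of arrays, and Thbs2, which encodes thrombospondin 2, of 8.91 ± 0.13, 7.61 ± 0.21 and 8.77 ± 0.13. These 3 genes ended within 2-fold of the start. Mamdc2, a secreted protein with MAM domains, lost far more than it regained, from 8.88, 8.75 and 8.73 to 5.94 and 5.70 and then 6.76, 7.06 and 6.65. Its Ctrl64h arrays were all well below its Ctrl4h arrays. The group also held Olfml3, Islr, Htra1, Tnfaip6 and Hpse, the last of which encodes heparanase.

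Hmcn1, the gene of the large matrix protein hemicentin-1, was measured by 77 probe sets, and all of them had the same shape. The one of highest mean, which stood for the gene, was 8.62, 8.12 and 8.11 at 4 h, 7.02 and 6.84 at 16 h and 8.16, 8.45 and 8.90 at 64 h. The other 76 were each lower at 16 h than at 4 h and higher at 64 h than at 16 h, 47 meeting both limits and 29 not. Their differences ran from -1.67 to -0.21 (median -1.15) for the first step and from 0.27 to 2.64 (median 1.60) for the second. Probe sets of 1 gene share their transcript and are not independent readings. Of the 111 single-symbol probe sets with both steps called, the genes left out by name aside, 48 belonged to Hmcn1, so a count of probe sets weights this gene heavily. Cks2 had 2 other probe sets, and both met the limits. Camta1 had 3 others, with mean levels of 4.56 to 5.31, first steps of -0.36 to -0.01 and second steps of -0.20 to 0.41, so its dip rested on 1 of 4 probe sets.

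**Figure D3:**
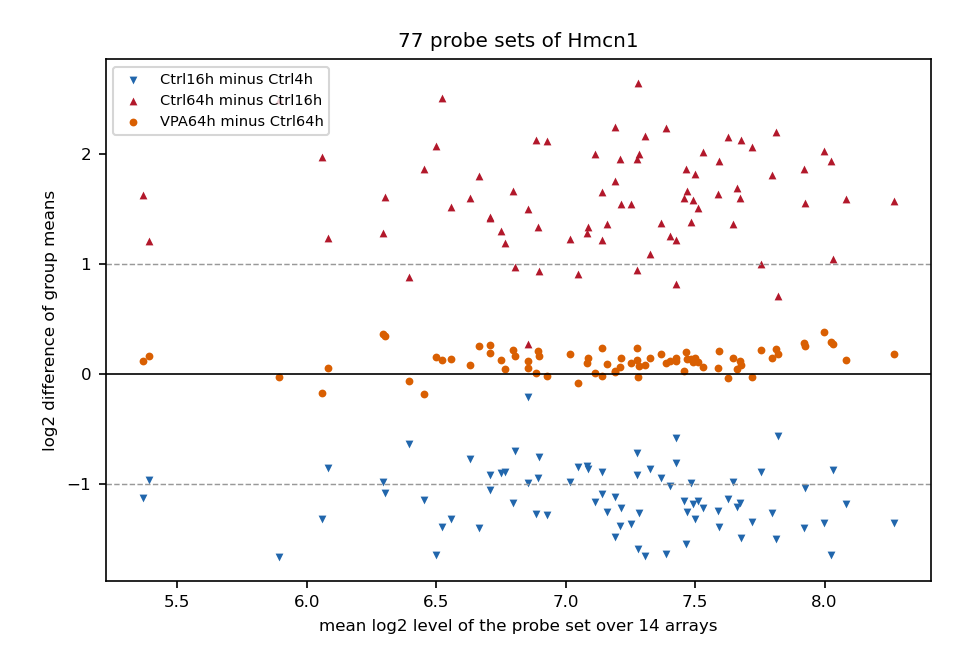
Differences between groups (vertical, log2) against mean level (horizontal, log2) for the 77 probe sets of Hmcn1. Ctrl16h minus Ctrl4h is below 0 and Ctrl64h minus Ctrl16h above 0 for each probe set, while VPA64h minus Ctrl64h lies near 0 with a median of 0.12.

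Cell surface and membrane proteins were the largest group, with 17 genes and median steps of -1.40 and 2.03. Itga8 encodes the integrin α8 subunit, which pairs with β1 to bind RGD sequences of matrix proteins. It read 9.10, 9.02 and 8.97 at 4 h, 6.50 and 6.51 at 16 h and 9.65, 9.85 and 9.63 at 64 h. The replicates lay close together and the times far apart, with a 5.76-fold lower level at 16 h than at 4 h and a 9.22-fold higher one at 64 h than at 16 h. Itm2a, an integral membrane protein, had 8.17, 8.21 and 8.26, then 6.40 and 6.20, then 8.10, 8.34 and 8.32. Its 4 h and 64 h arrays overlapped. Gabra3, the α3 subunit of the GABA type A receptor, was 7.65 ± 0.03 (SD, n = 3), 5.98 ± 0.02 (SD, n = 2) and 8.16 ± 0.01 (SD, n = 3). In the same groups Susd2, a membrane protein with a sushi domain, was 9.98 ± 0.37, 8.41 ± 0.24 and 10.58 ± 0.22, and Dpep1, a membrane dipeptidase, 7.41 ± 0.06, 6.29 ± 0.16 and 7.66 ± 0.10. Tmem204, a transmembrane protein near the limit, and Naalad2, Heph, Alcam, Kcne4, Tmem176a, Ms4a4d, Milr1, Art3 and Egfem1 belonged to this group too.

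The promoter of Itga8 is shown because both its steps passed 4-fold. It is taken from RefSeq (build GRCm38.p6, chr2:12301895-12302194, minus strand) and runs 5′ to 3′ from 250 bases before to 50 bases after the start of the gene. Here and below capitals mark matches to the motifs described further on, and this stretch holds none.
Itga8: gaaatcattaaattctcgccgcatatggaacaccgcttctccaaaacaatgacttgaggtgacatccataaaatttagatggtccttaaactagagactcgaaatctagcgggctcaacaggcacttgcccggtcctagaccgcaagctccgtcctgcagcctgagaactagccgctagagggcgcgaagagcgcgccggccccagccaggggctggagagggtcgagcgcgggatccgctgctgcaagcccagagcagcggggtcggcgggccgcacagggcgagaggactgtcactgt

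Clca3a1 and Clca3a2 encode regulators of calcium-activated chloride channels. They lie beside each other on chromosome 3, the one pair of the set with no other coding gene between them. Clca3a1 was 9.32, 8.12 and 7.53 at 4 h, 6.68 and 6.93 at 16 h and 10.18, 9.93 and 9.85 at 64 h. Clca3a2 was 8.27, 7.17 and 7.05, then 6.04 and 6.11, then 9.20, 8.68 and 8.89. In both genes Ctrl4h replicate 1 stood well above the other Ctrl4h arrays, and the 64 h arrays were above all 4 h arrays. Paralogues this close may share probe sequence, so the pair is uncertain as separate readings. The promoter of Clca3a1 is shown because the gene rose with VPA as well, as described below (RefSeq, GRCm38.p6, chr3:144760928-144761227, minus strand).
Clca3a1: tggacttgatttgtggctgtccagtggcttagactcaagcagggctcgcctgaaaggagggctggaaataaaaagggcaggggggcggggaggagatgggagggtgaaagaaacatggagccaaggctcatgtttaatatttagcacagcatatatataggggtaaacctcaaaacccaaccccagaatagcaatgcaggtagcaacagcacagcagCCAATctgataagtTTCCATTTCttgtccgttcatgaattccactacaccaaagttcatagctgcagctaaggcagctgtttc
The capitals are a CCAAT box and a match on the opposite strand to GAAANNGAA, the core of an interferon-stimulated response element (ISRE).

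Immune, complement and interferon-inducible genes numbered 9, with median steps of -1.71 and 1.28. Rarres2, the gene of the chemoattractant chemerin, was 9.12, 9.11 and 8.85 at 4 h, 7.43 and 7.12 at 16 h and 9.33, 9.82 and 9.41 at 64 h. C1s1, which encodes a serine protease of the first complement component, was 8.78, 8.26 and 8.08, then 6.34 and 6.29, then 7.41, 7.37 and 7.28. The Ctrl64h arrays of Rarres2 were above its Ctrl4h arrays, whereas C1s1 stayed below its start by a log2 difference of -1.02. Serping1, the gene of the C1 inhibitor, which acts on the same protease, was 12.12 ± 0.22 (SD, n = 3), 10.85 ± 0.17 (SD, n = 2) and 11.94 ± 0.13 (SD, n = 3). AW112010, a long non-coding RNA, was 8.41 ± 0.35, 5.85 ± 0.06 and 7.24 ± 0.22 in these groups. It was the third gene, with Mamdc2 and C1s1, that ended at least 2-fold below its start.

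The interferon-inducible GTPases Gbp2b and Iigp1 are known for defence against pathogens within the cell. Gbp2b was 8.66, 8.10 and 7.60 at 4 h, 6.75 and 6.22 at 16 h and 8.81, 8.55 and 8.51 at 64 h. Iigp1 was 7.62, 7.59 and 7.22, then 5.76 and 5.77, then 7.34, 7.57 and 7.11. Both overlapped between 4 h and 64 h, and Gbp2b had a wide spread at 4 h. Other probe sets are shared by Gbp2 and Gbp2b, and by Gbp11 and its relatives, so values of single family members are uncertain. C1qtnf1, a secreted relative of complement C1q, was also in the group. The Gbp2b promoter is shown as that of an interferon-inducible gene with an ISRE match (RefSeq, GRCm38.p6, chr3:142594597-142594896, plus strand). Its capitals mark, in order, an ISRE match and a CCAAT box, both on the opposite strand, and a match to TGANTCA (an AP-1 site).
Gbp2b: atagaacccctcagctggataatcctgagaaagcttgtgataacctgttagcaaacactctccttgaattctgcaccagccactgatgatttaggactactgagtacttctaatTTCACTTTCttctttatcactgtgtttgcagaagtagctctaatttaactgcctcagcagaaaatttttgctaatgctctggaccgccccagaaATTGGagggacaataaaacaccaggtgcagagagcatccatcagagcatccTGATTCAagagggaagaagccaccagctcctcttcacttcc

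Ccl3, a macrophage inflammatory chemokine, varied with the replicate number. It was 8.84, 7.19 and 6.60 in Ctrl4h replicates 1, 2 and 3, 5.69 and 5.52 in Ctrl16h replicates 1 and 2 and 7.88, 6.55 and 6.21 in Ctrl64h. With VPA it was 8.95, 7.81 and 6.36 in VPA4h and 7.74, 6.55 and 6.21 in VPA64h. Replicate 1 was the highest in each of the 5 groups. The Kupffer cell and macrophage markers summed to 11.36, 10.81 and 10.58 in the Ctrl4h arrays, 10.48 and 10.41 in the Ctrl16h arrays and 11.49, 10.87 and 10.78 in the Ctrl64h arrays, with replicate 1 again the highest. The Ctrl16h group has no replicate 3. With control replicates 1 and 2 alone Ccl3 still met both limits, but without Ctrl64h replicate 1 it did not. The part of macrophages in its pattern was not tested.

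Lysosomal, retinoid, steroid and carrier proteins were 7 genes, with median steps of -1.34 and 1.57. Dhrs3 reduces all-trans-retinal to retinol and so belongs to the vitamin A handling of HSCs. It was 8.40, 8.65 and 8.09 at 4 h, 7.25 and 6.94 at 16 h and 10.15, 10.04 and 10.05 at 64 h. The 64 h arrays were far above all others, and the return was 7.92-fold. Cpq, a carboxypeptidase, was 9.58 ± 0.13 (SD, n = 3), 7.97 ± 0.15 (SD, n = 2) and 9.53 ± 0.11 (SD, n = 3). In the same groups Selenop, the selenium carrier of plasma, was 7.80 ± 0.15, 6.41 ± 0.19 and 7.97 ± 0.18, and Tcn2, a carrier of vitamin B12, 9.79 ± 0.08, 8.45 ± 0.08 and 10.30 ± 0.05. Selenop and Cpq returned to their start, and Tcn2 ended above it. Smpdl3a, Man2b1 (a lysosomal mannosidase) and Hsd11b1 (which activates glucocorticoids) completed the group.

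Transcription factors and intracellular signalling proteins were 11 genes, with median steps of -1.21 and 1.496. Tcf21, a basic helix-loop-helix factor, was 10.53, 11.33 and 10.78 at 4 h, 9.33 and 9.36 at 16 h and 10.85, 10.98 and 10.79 at 64 h. The times before and after the dip overlapped. Id3, which blocks factors of the basic helix-loop-helix family and is induced by BMP signalling, was 8.86, 9.21 and 9.23, then 8.28 and 7.87, then 10.06, 10.34 and 9.99. It ended 1.03 above its start, with no overlap between 64 h and 4 h.

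The immediate early genes Dusp1, Ier3 and Gadd45b are induced quickly by stimuli in many cells. Dusp1, a phosphatase of MAP kinases, was 11.74, 11.19 and 11.27 at 4 h, 10.49 and 10.12 at 16 h and 11.44, 11.48 and 11.26 at 64 h. Ier3 was 9.22 ± 0.19 (SD, n = 3), 7.82 ± 0.01 (SD, n = 2) and 9.11 ± 0.22 (SD, n = 3), and Gadd45b 9.88 ± 0.17, 8.46 ± 0.20 and 9.57 ± 0.15. All 3 came back to within 2-fold of the 4 h level. Cks2, a small subunit of cyclin-dependent kinases, was 7.66, 7.90 and 7.72, then 5.58 and 5.89, then 7.33, 7.20 and 7.17. Its 64 h arrays lay just below its 4 h arrays. Prkg1, the cGMP-dependent protein kinase, was 8.04 ± 0.09, 6.89 ± 0.02 and 9.31 ± 0.07, and Capn6, a calpain without a catalytic cysteine, 7.02 ± 0.34, 5.81 ± 0.23 and 7.38 ± 0.49. Camta1, Klhl24 and Tcp11l2 were the other members of the group.

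The last 4 genes were multi-copy or non-coding. Usp17ld, a deubiquitinase of a multi-copy family, was 8.81, 8.80 and 9.08 at 4 h, 6.09 and 6.42 at 16 h and 8.54, 10.32 and 9.79 at 64 h. Both of its steps were large, but its Ctrl64h arrays were far apart, and another probe set is shared within its family. AY036118 was 10.14 ± 0.26 (SD, n = 3), 8.17 ± 0.22 (SD, n = 2) and 10.30 ± 0.36 (SD, n = 3). H4c4, a histone H4 gene, had steps of -1.11 and 1.18, and Rmrp, the RNA of the RNase MRP particle, of -1.03 and 1.21. H4c4 is one of several near-identical histone genes that share further probe sets, so its value is uncertain.

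**Figure D4:**
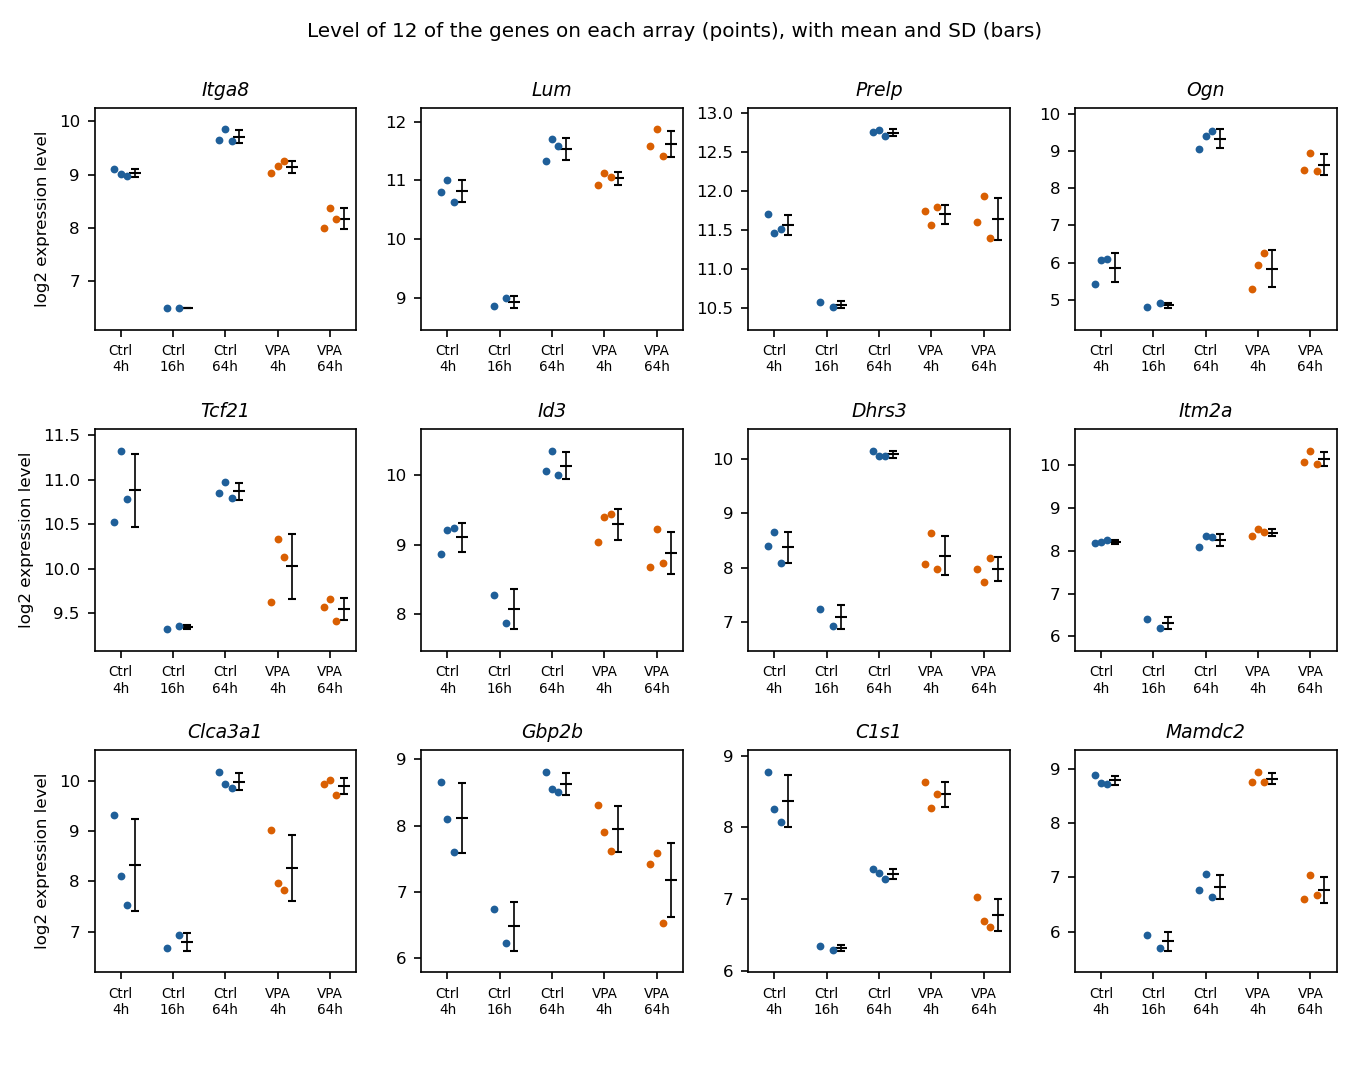
Log2 expression level of 12 of the genes on each array (points, by group), with mean and SD of the group (bars, n = 2 for Ctrl16h and 3 otherwise). The Ctrl16h points are the lowest control points in every panel, and the VPA64h points lie above Ctrl64h for Itm2a and below it for Itga8, Prelp, Ogn, Tcf21, Id3, Dhrs3, Gbp2b and C1s1.

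The difference between VPA64h and VPA4h uses no control array and shows where the genes stood at the ends of treated cultures. Its SE and p-values come from a spread shared by all 5 groups, controls included. With only VPA64h and VPA4h in the fit the same 15 genes were called. Of the 61 genes 5 rose and 10 fell between 4 h and 64 h with VPA, while 5.26% of all tested probe sets rose and 2.29% fell. All 61 genes had a mean level over the 14 arrays above that of the median gene. Their means ran from 6.60 to 11.78, and those of all 19938 genes from 2.56 to 13.84 with a median of 6.33. Shares of the tested probe sets, wherever given, are therefore not matched to the 61 genes in level. The part of level in such differences was not tested. The median difference was -0.29 for the 61 genes and -0.08 for all tested probe sets. The 3 arrays of a group lay wholly above those of the other for 19 genes and wholly below for 28, against 25% and 32.1% of the tested probe sets. Of the 156 genes that were lower at 16 h without returning 1 rose and 97 fell, with a median of -1.22, and the difference between the sets was not tested.

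The 5 genes that rose were Ogn, Itm2a, Clca3a1, Capn6 and Clca3a2. Ogn was 5.29, 5.93 and 6.27 in VPA4h and 8.48, 8.95 and 8.45 in VPA64h (2.80 ± 0.23 SE, limma adjusted p = 5.68e-08). Itm2a went from 8.34, 8.52 and 8.43 to 10.07, 10.35 and 10.03 (1.72 ± 0.10 SE, limma adjusted p = 1.86e-09). In both genes the groups were far apart, with a wider spread within VPA4h for Ogn. The neighbours Clca3a1 (1.62 ± 0.35 SE, limma adjusted p = 0.00105) and Clca3a2 (1.31 ± 0.27 SE, limma adjusted p = 0.000759) rose as well, as did Capn6 (1.41 ± 0.20 SE, limma adjusted p = 2.11e-05). These 5 calls held in each alternative tried.

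Of the 10 that fell 3 were in the membrane group, 3 in the immune group, 2 in the signalling group and 1 each in the matrix and the lysosomal and carrier groups. Mamdc2 was 8.76, 8.94 and 8.75 in VPA4h and 6.60, 7.04 and 6.67 in VPA64h (-2.05 ± 0.13 SE, limma adjusted p = 3.20e-09). Tmem204 went from 10.32, 10.61 and 10.36 to 8.51, 8.88 and 8.48 (-1.80 ± 0.13 SE, limma adjusted p = 1.55e-08), and C1s1 from 8.63, 8.28 and 8.47 to 7.03, 6.69 and 6.61 (-1.68 ± 0.15 SE, limma adjusted p = 1.99e-07). In these 3 genes the groups were well apart. AW112010 (-1.53), Cks2 (-1.27), Iigp1 (-1.26), Gadd45b (-1.25) and Dpep1 (-1.23) fell too, with limma adjusted p from 3.18e-07 for Dpep1 to 5.73e-06 for Gadd45b. Susd2 (-1.06 ± 0.19 SE, limma adjusted p = 0.000259) and Cpq (-1.03 ± 0.12 SE, limma adjusted p = 2.57e-06) were close to 2-fold. The call of Susd2 was lost without VPA4h replicate 1 or VPA64h replicate 3, and that of Cpq without VPA4h replicate 2, VPA64h replicate 1 or VPA64h replicate 3.

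After 4 h none of the 61 genes was called with VPA. The comparison of VPA4h with Ctrl4h shares the Ctrl4h arrays with the choice of the genes. By limma 0 were called higher and 0 lower, against 0.867% and 0.555% of the tested probe sets. The arrays lay wholly above control for 8 genes and wholly below for 2, against 16.2% and 16.8% of the tested probe sets. At an adjusted p below 0.05 alone, without the limit of 2-fold, 3 of the 61 genes were higher and 1 lower. Of the 23410 tested probe sets 2689 were higher and 2331 lower. Both are larger shares than in the 61 genes, and the difference was not tested. The lower one was Tcf21, with 10.53, 11.33 and 10.78 in Ctrl4h and 9.63, 10.33 and 10.13 in VPA4h (-0.85 ± 0.18 SE, limma adjusted p = 0.00213). Each VPA4h array of Tcf21 lay below each Ctrl4h array, and without Ctrl4h replicate 1 or VPA4h replicate 2 the gene was called. The higher ones were Camta1 (0.72 ± 0.10 SE, limma adjusted p = 5.01e-05), Ms4a4d (0.48) and Klhl24 (0.36).

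After 64 h more of the genes were called lower than higher with VPA. The comparison of VPA64h with Ctrl64h shares the Ctrl64h arrays with the choice of the genes, which took genes with a high level there, so the direction of the counts is not independent of the rule. Of the 61 genes 3 were called higher and 11 lower, against 1.0% and 1.14% of the tested probe sets. The arrays lay wholly above control for 12 genes and wholly below for 29, against 19.4% and 17.6%. The median difference was -0.38, with 44 of 61 genes below 0, and it was 0.00 over all tested probe sets.

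Dhrs3 had the largest difference of the 61, with 7.98, 7.75 and 8.19 in VPA64h against 10.15, 10.04 and 10.05 in Ctrl64h (-2.11 ± 0.17 SE, limma adjusted p = 3.82e-07). With VPA it lay above its 16 h level and near or below its 4 h level. Itga8 was 7.99, 8.37 and 8.17 with VPA and 9.65, 9.85 and 9.63 without (-1.53 ± 0.10 SE, limma adjusted p = 5.70e-08), which placed it between its Ctrl16h and Ctrl4h arrays. Tmem204 (-1.87 ± 0.13 SE, limma adjusted p = 8.46e-08) and Dpep1 (-1.71 ± 0.12 SE, limma adjusted p = 6.68e-08) were lower in both comparisons. So were Susd2 (-1.57 ± 0.19 SE, limma adjusted p = 2.20e-05) and Cpq (-1.04 ± 0.12 SE, limma adjusted p = 9.50e-06). For Tmem204 the paper reports that qPCR did not bear out the array result. Gbp2b (-1.45), Tcf21 (-1.32), Id3 (-1.25), Rarres2 (-1.15) and Prelp (-1.10) were lower too, with limma adjusted p from 5.39e-06 for Prelp to 0.00106 for Gbp2b. The call of Prelp was lost without VPA64h replicate 3, that of Rarres2 without Ctrl64h replicate 2, and that of Cpq without Ctrl64h replicate 2 or VPA64h replicate 1 and with centring on housekeeping genes.

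The 3 genes called higher with VPA after 64 h were Itm2a, Capn6 and Thbs2. Itm2a was 10.07, 10.35 and 10.03 with VPA and 8.10, 8.34 and 8.32 without (1.90 ± 0.10 SE, limma adjusted p = 7.90e-09), and its VPA64h arrays were above all its other arrays. Capn6 was 8.65, 8.82 and 8.74 with VPA and 6.96, 7.93 and 7.25 without (1.36 ± 0.20 SE, limma adjusted p = 0.000112). Thbs2 was 9.84, 9.73 and 9.80 against 8.81, 8.87 and 8.63 (1.03 ± 0.10 SE, limma adjusted p = 2.13e-06), a call that was lost without Ctrl64h replicate 3. In none of the 3 did the groups overlap. Ogn (-0.70), Lum (0.08), Clca3a1 (-0.09) and Mamdc2 (-0.05) were not called.

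**Figure D5:**
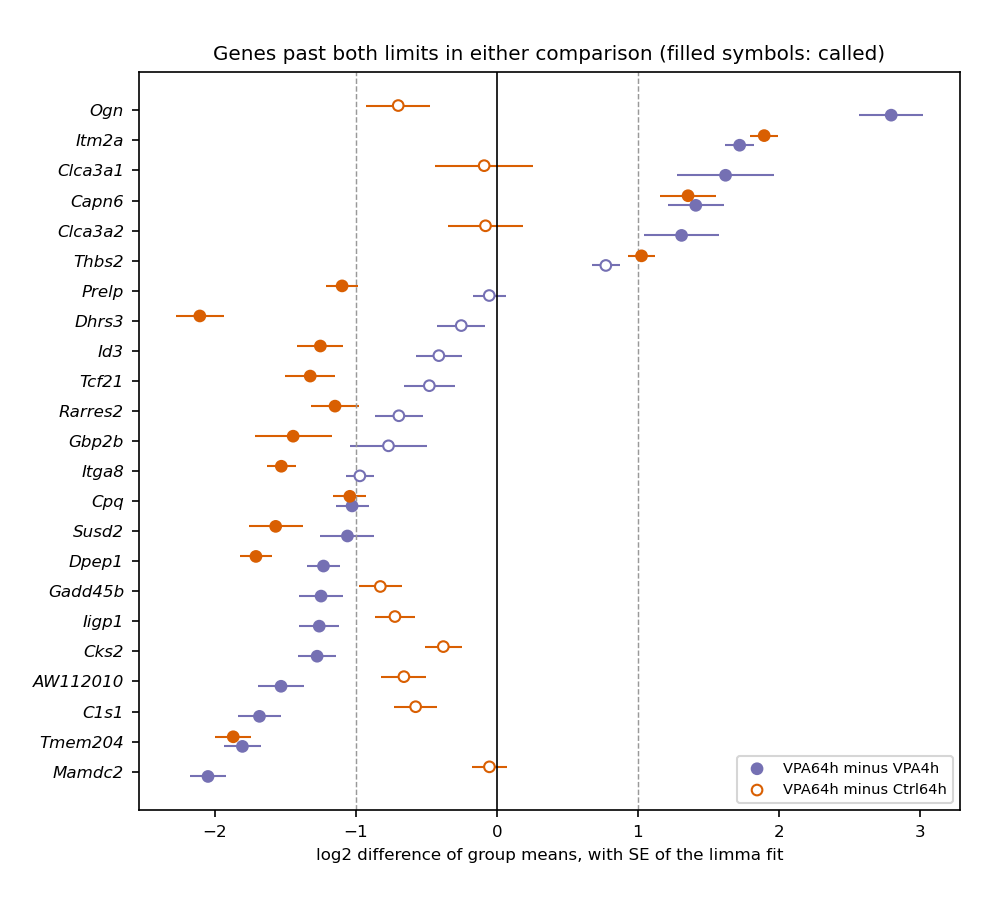
Log2 difference with the SE of the limma fit (horizontal) for the 23 genes called in VPA64h against VPA4h or in VPA64h against Ctrl64h, filled where called. Itm2a and Capn6 are filled on the right in both comparisons and Tmem204, Dpep1, Susd2 and Cpq on the left in both, while Ogn and Mamdc2 are called against VPA4h and not against Ctrl64h.

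The VPA effects at 64 h and 4 h were compared with each other in the same fit. The effect was higher at 64 h for 2 of the 61 genes, Itm2a and Capn6, and lower for 11, against 0.893% and 1.7% of the tested probe sets, and both control groups in this difference had served to choose the genes. The Ctrl16h arrays chose the genes for a low level, so a higher level than theirs was largely set in advance, and nothing is read from the counts against them. In VPA64h 57 of the 61 genes had all 3 arrays above both Ctrl16h arrays, against 26.3% of the tested probe sets, and Tmem204 and Dpep1 were the 2 genes with all of them below, against 37.5%. The mean with VPA was at least 2-fold above the Ctrl16h mean for 38 genes, against 4.53%, above it by less for 21 and below it for 2. Tmem204 was 8.62 ± 0.23 (SD, n = 3) in VPA64h and 9.34 ± 0.27 (SD, n = 2) in Ctrl16h, and Dpep1 5.95 ± 0.15 and 6.29 ± 0.16. Without treated cells at 16 h these values do not say whether the genes dipped with VPA.

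Of the 61 genes 44 had a promoter in the RefSeq table, as had 15563 of all measured genes. In the 250 bases before and 50 bases after the start, the median ratio of observed to expected CpG was 0.381 in these genes and 0.626 in all. A ratio of at least 0.6 was found for 29.5% of the 44 and for 52.4% of all, and the median GC content was 54.2% and 57.7%. The promoters of all measured genes, used for the motifs below as well, were not matched to the 44 in expression level. The part of level in these differences was not tested. The promoters of Tcf21 and Dhrs3, 2 genes that were lower with VPA after 64 h, are shown as one poor and one rich in CpG (RefSeq, GRCm38.p6, chr10:22820094-22820393, minus strand, and chr4:144892577-144892876, plus strand). They have ratios of 0.38 and 0.82 and no motif match.
Tcf21: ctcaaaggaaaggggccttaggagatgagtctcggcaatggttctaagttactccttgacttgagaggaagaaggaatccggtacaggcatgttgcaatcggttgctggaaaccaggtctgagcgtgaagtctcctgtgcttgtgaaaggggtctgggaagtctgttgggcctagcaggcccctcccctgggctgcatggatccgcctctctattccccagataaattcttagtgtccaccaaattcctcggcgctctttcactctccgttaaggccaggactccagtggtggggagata
Dhrs3: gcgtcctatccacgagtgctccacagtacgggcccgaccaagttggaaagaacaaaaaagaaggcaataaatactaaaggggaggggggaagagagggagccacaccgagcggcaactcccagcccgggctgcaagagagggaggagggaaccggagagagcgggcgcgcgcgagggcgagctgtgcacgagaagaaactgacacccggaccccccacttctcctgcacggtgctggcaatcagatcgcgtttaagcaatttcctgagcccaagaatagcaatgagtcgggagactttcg

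Motifs were searched on both strands of these promoters as plain letters, overlaps included. ISRE (GAAANNGAA) was found in 9 of 44 (20.5%, against 7.9% of all promoters), among them those of Capn6, Ccl3, Clca3a1, Gbp2b, Htra1, Milr1, Selenop and Usp17ld. NF-κB (GGNNTTTCC) was in 6 (13.6% against 5.7%), AP-1 (TGANTCA) in 5 (11.4% against 7.0%), the CCAAT box in 20 (45.5% against 38.3%) and the TATA box (TATAAA) in 7 (15.9% against 12.1%). The E-box (CACGTG) was in 3 (6.8% against 8.4%), the nuclear receptor motif (AGGTCA) in 3 (6.8% against 13.9%), the D-box (TTATGNAA) in 2 (4.5% against 3.1%) and CRE (TGACGTCA) in 1 (2.3% against 2.5%). GAS (TTCCNGGAA) and C/EBP (TTGCGCAA) were in none of the 44, against 1.2% and 0.2%. A match describes the letters of a stretch and is not a binding site.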

How the data were processed

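RNA of 14 HSC cultures was measured with 1 array per culture. The authors made and deposited log2 expression values with RMA (background correction, quantile normalisation and probe summarisation). The paper's methods name GeneSpring GX for this step and the submitters' notes name Affymetrix Expression Console. Differences between arrays are thus relative to the rest of each array, and precision is limited by the number of arrays, since these data hold no counts. Of 35557 probe sets 23410 had at least 1 gene symbol and were tested. Genes were named from the 21789 with exactly 1, through the one of highest mean. The 5 genes left out by name are not reported here.

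Group means were fitted in limma (version 3.58.1, R 4.3.3) over all 5 groups, with two-sided tests and Benjamini-Hochberg adjustment over the tested probe sets of a comparison. The limits (adjusted p under 0.05 and 2-fold) are those of the study's methods. On simulated data for VPA64h against VPA4h (23410 probe sets, 50 changed at each size), 82% of 1.5-fold and 98% of 2-fold changes had an adjusted p under 0.05. The limit of 2-fold was not applied there, and no other probe sets differed between groups. These percentages are therefore not the recovery of the calls used here. Deviations of same-numbered arrays correlated weakly for VPA4h with Ctrl4h (0.16, 0.28 and 0.14) and for VPA64h with Ctrl64h (0.16, 0.16 and 0.17). For VPA64h with Ctrl4h the correlations were 0.14, 0.18 and 0.11, and for VPA64h with VPA4h they were uneven (-0.01, 0.23 and 0.07). Over all 26 same-numbered pairs they ran from -0.24 to 0.28.

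The genes and lists were chosen with earlier results of these data known. Named genes are the 25 with the largest smaller step, up to 8 called per direction and comparison with VPA whose arrays did not overlap, up to 6 per list, and the 3 on either side of the limits. Alternatives were other rows, filters, centring, variance models, the replicate block, leaving out arrays and other limits of the rule. Function groups were formed after the genes were known.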

Additional observations from a re-analysis of the deposited data

Results flagged for a closer look

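For 13 of the 61 genes the VPA effect at 64 h differed from that at 4 h by a test of the difference itself in limma, 2 upwards and 11 downwards, against 0.893% and 1.7% of the tested probe sets. The difference contains the Ctrl4h and Ctrl64h arrays, which chose the genes for a high level at both times, so neither the counts nor the p-values are independent of that choice. The log2 difference of the effects was 1.68 for Itm2a (adjusted p = 2.56e-06) and 1.05 for Capn6 (adjusted p = 0.0159), both with a higher effect at 64 h. It was -1.95 for Dhrs3, -1.95 for Tmem204, -1.66 for Susd2, -1.65 for Itga8, -1.48 for Dpep1 and -1.44 for Id3. It was -1.27 for Gbp2b (adjusted p = 0.0344), -1.23 for Prelp, -1.19 for Rarres2, -1.17 for Tmem176a and -1.12 for Iigp1. The values of Gbp2b, Capn6 and Iigp1 did not pass both limits in 9, 4 and 2 of the alternatives, respectively, and the other 10 passed them in all alternatives tried. At 4 h none of the 13 genes was called, but only 1.4% of all tested probe sets were, so nothing is read from this. All 4 groups of the difference had 3 arrays.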

How the results depend on the processing

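Centring the arrays on 13 housekeeping genes gave 92 genes, which included all 61. The mean of the housekeeping genes was 10.54 to 10.66 in the Ctrl4h arrays and 10.79 to 10.80 in the Ctrl16h arrays. Limits of 1.5-fold gave 187 genes and limits of 3-fold 8. Without single control arrays the number ran from 49 to 70, and with control replicates 1 and 2 alone, an alternative chosen after seeing the data, it was 64, of which 56 were among the 61. Without single arrays, VPA64h against VPA4h gave 5 to 6 higher and 9 to 12 lower, VPA4h against Ctrl4h 0 higher and 0 to 1 lower, VPA64h against Ctrl64h 2 to 4 higher and 9 to 13 lower, and the difference of the VPA effects 1 to 2 higher and 9 to 15 lower. With all rows of the table tested, the last had 1 higher. With the replicate number as a block the counts were 5 higher and 10 lower, 0 and 0, 3 and 11, and 2 and 11, as without it, and no single call changed. Of 42 calls of single genes 33 held in every alternative, 9 were lost in at least 1, and no direction reversed. The causes were not tested. With 2 arrays at 16 h, a gene near the limits may enter or leave the set by the choice of array.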
